A study of Mus musculus with 6 samples.

Results

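miR-124-3p and miR-124-5p are the products of the 2 arms of the mouse miR-124 hairpins, and they were followed here as RISC-bound small RNAs (R-sRNAs) in young and old brains. Members were all read sequences whose miRNA label was mmu-miR-124-3p or mmu-miR-124-5p, which were 2595 of the 143934 sequences in the deposited table and 2 of its 1101 miRNA labels. Of these, 2531 sequences carried the miR-124-3p label and 64 the miR-124-5p label, and none carried a second miRNA label. The brains came from male C57BL/6J (BL6) mice with no further allele or treatment, and 3 mice of 2 months (2M) were compared with 3 mice of 18 months (18M). Cortex and hippocampus were pooled within a mouse. Argonaute proteins (Ago1-4) were pulled down with a peptide of GW182, a protein that binds Argonaute, and the RNA that came with them was gel-extracted by size and sequenced (Ago-RP-Seq). Values are RPM, reads scaled to the same library total, so each is a share of the RISC content of a library and not an amount per cell, and fewer cells of a type cannot be told apart from less RNA per cell.

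A miRNA hairpin is cut by Drosha and Dicer into a duplex of 2 short strands. Argonaute keeps the guide strand and usually discards the passenger strand, and the guide finds its mRNA targets through its seed, the bases next to its 5′ end. miR-124 is an abundant neuronal miRNA that is known for repressing non-neuronal genes such as Ptbp1, a repressor of neuronal splicing, and its 3p arm is the guide. A read that starts 1 base earlier or later than usual carries another seed and thus may find other mRNAs. In the study each 6mer seed, read positions 2 to 7, has a viability, the percent of cells that survived after an siRNA with that seed was transfected, averaged over mouse cell lines.

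The reads below are those the results turn on, in the letters of the deposited table (T for U), with the 6mer seed in capitals. The first 4 share the main 5′ start of miR-124-3p and differ at the 3′ end, the next 2 start 1 base earlier and 1 base later, the next 3 end in bases that the hairpins do not encode, and the last 3 belong to miR-124-5p.
miR-124-3p, 19 nt: tAAGGCAcgcggtgaatgc
miR-124-3p, 20 nt: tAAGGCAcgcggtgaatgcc
miR-124-3p, 21 nt: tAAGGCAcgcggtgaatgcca
miR-124-3p, 22 nt: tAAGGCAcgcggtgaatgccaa
miR-124-3p, 22 nt, start 1 base earlier: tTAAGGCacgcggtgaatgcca
miR-124-3p, 20 nt, start 1 base later: aAGGCACgcggtgaatgcca
miR-124-3p, 21-nt body with 1 U: tAAGGCAcgcggtgaatgccat
miR-124-3p, 21-nt body with 2 U: tAAGGCAcgcggtgaatgccatt
miR-124-3p, 22-nt body with 1 A: tAAGGCAcgcggtgaatgccaaa
miR-124-5p, 21 nt: cGTGTTCacagcggaccttga
miR-124-5p, 22 nt: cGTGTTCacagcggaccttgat
miR-124-5p, 21-nt body with 1 A: cGTGTTCacagcggaccttgaa

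Hairpins of 3 genes can give these reads. In the GENCODE M21 annotation of GRCm38, Mir124a-1 is at chr14:64590657-64590741 in an exon of the lincRNA gene Mir124a-1hg, Mir124a-2 is at chr3:17795662-17795770 in an exon of the lincRNA gene Mir124-2hg, and Mir124a-3 is at chr2:180894040-180894107 with no host gene on its strand. All 3 lie on the plus strand. The 21-nt main read of miR-124-3p matched each of them, at chr14:64590709-64590729, chr3:17795723-17795743 and chr2:180894083-180894103. Reads that matched all 3 hairpins exactly made up 85.7% of the miR-124-3p reads, and reads that matched 1 or 2 of them made up 0.001% and 0.0002%. The genes could therefore not be told apart by their guide strand. For miR-124-5p, 95.5% of the reads matched all 3 hairpins.

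The first question was how much of the RISC content each strand made up and whether that differed with age. miR-124-3p was the most abundant miRNA label in each of the 6 libraries and held 11.8% of all reads, against 4.32% for the next label, miR-128-3p. Its level was 126188, 127742 and 128952 RPM in 2M replicates 1, 2 and 3, and 95824, 134320 and 92539 RPM in 18M replicates 1, 2 and 3. The young brains lay within a narrow band, 2 of the 3 old brains lay below all of them, and 18M replicate 2 lay above all of them. The young mean was 127628 ± 1386 RPM (SD, n = 3) and the old mean 107561 ± 23232 RPM (SD, n = 3). The log2 fold change was -0.27 (SE 0.15), which did not pass the test (limma, adjusted p = 0.395 over 474 miRNA labels with a mean of at least 10 RPM). Of those labels 4.85% were called at an adjusted p under 0.05 with all 6 libraries. On leaving out a library 0 to 15 labels were called, and the number without 18M replicate 2 alone is not given here. Without 18M replicate 2 the log2 fold change was -0.44 and miR-124-3p was called (limma, adjusted p = 0.0336), so this library decided the call. Over the other settings tried, the log2 fold change stayed between -0.28 and -0.14 with no call.

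miR-124-5p, the passenger strand, was present at 425, 407 and 315 RPM at 2M and 359, 326 and 375 RPM at 18M. The values of the ages overlapped, and 2M replicate 3 was the lowest of all. Its means were 382 ± 59.0 RPM (SD, n = 3) and 353 ± 25.1 RPM (SD, n = 3), a log2 fold change of -0.10 (SE 0.15, limma, adjusted p = 0.762). It ranked 174 of 1101 labels by its mean. With 6611 to 10208 reads a library behind it, against 1847518 to 3204857 reads for miR-124-3p, its level was well above the counting floor of 3 reads (0.120 to 0.156 RPM).

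**Figure D1:**
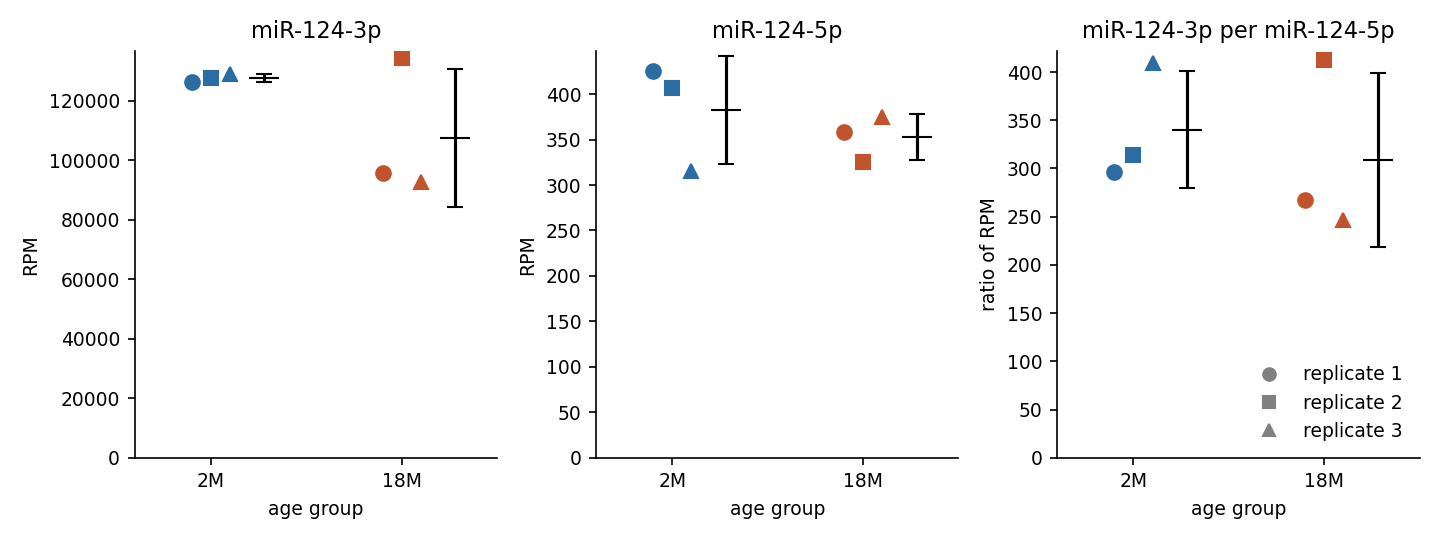
RPM of miR-124-3p (left) and miR-124-5p (middle) and the ratio of the first to the second (right) in each library, with 1 point per library and the mean ± SD (n = 3) beside it; axes start at 0. The 2M points of miR-124-3p cluster, while 18M replicate 2 sits above them and the other two 18M libraries below; in the other panels the ages overlap.

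The ratio of the strands was 297, 314 and 409 at 2M and 267, 412 and 247 at 18M. The mean ratio was 340 ± 60.6 (SD, n = 3) and 309 ± 90.3 (SD, n = 3), and the ages overlapped. On the log2 scale with 1 added to each arm the difference was -0.16 (SE 0.25, limma, adjusted p = 0.94). None of the 148 hairpins with both arms at a mean of at least 10 RPM was called for its ratio (0.0%), and 10 of them (6.76%) had an unadjusted p under 0.05. miR-124 had the second highest ratio of 3p to 5p among the 148 hairpins, of which 64 had more 3p than 5p. By the mean of the log2 ratios, miR-222 came first at 366-fold, miR-124 followed at 317-fold and miR-221 came next at 293-fold. The SDs over libraries of these log2 ratios were 0.44, 0.31 and 0.37, larger than the steps between neighbours, so the order of these 3 is not set beyond their spread. The median hairpin had 7.99 times more of its main arm than of the other.

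The guide strand was not a single molecule but a family of 3′ ends. The 21-nt read was the most abundant sequence of the whole table and made up 37.5% of miR-124-3p, the 20-nt read 17.8%, the 19-nt read 10.6% and the 22-nt read 7.01%. In all, 12 sequences reached a mean of 1000 RPM. The 21-nt read was at 49758, 47147 and 46240 RPM at 2M and at 30402, 54613 and 36108 RPM at 18M, so that 18M replicate 2 was again above all young brains and the other two old brains were below them. Its log2 fold change was -0.29 (SE 0.21, limma, adjusted p = 0.555 over 3281 sequences). The 19-nt read was at 14494, 14979 and 14082 RPM at 2M and at 11010, 11512 and 9025 RPM at 18M. Here all 3 old brains, replicate 2 included, lay below all young ones, as was the case for 9.45% of all sequences tested. Its log2 fold change was -0.47 (SE 0.13), with a raw p of 0.0083 and an adjusted p of 0.224 (limma), so it was not called. The 20-nt read was at 18878, 29365 and 25811 RPM at 2M and at 16936, 20909 and 13411 RPM at 18M, with overlap (log2 fold change -0.53, SE 0.22, limma, adjusted p = 0.375). The 22-nt read went the other way in its mean, from 7640 ± 2310 RPM (SD, n = 3) to 8854 ± 2204 RPM (SD, n = 3), with overlap and an adjusted p of 0.742 (limma). Its log2 fold change was 0.23, and it was -0.05 without 2M replicate 2, the library in which this read was lowest at 5000 RPM.

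**Figure D2:**
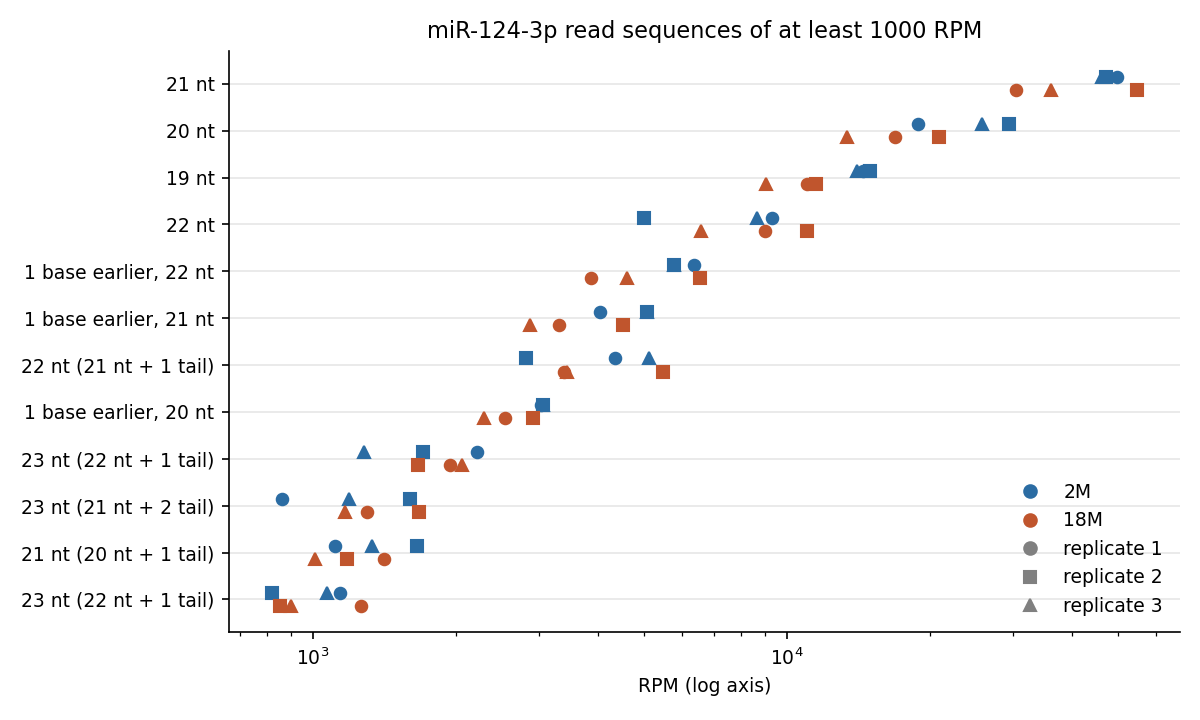
RPM (log axis) of the 12 miR-124-3p sequences that average 1000 RPM or more in each library, named by 5′ start, length and, for tailed reads, the length of the matched body and the number of added bases; of the 2 sequences named 23 nt (22 nt + 1 tail) the upper ends in U and the lower in A. The 19-nt read and the 20-nt read that starts 1 base earlier have all 18M points left of all 2M points, and the other 10 sequences overlap.

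Of all member sequences, 112 had a mean of at least 10 RPM and entered the fit, 108 of miR-124-3p and 4 of miR-124-5p. None was called at an adjusted p under 0.05 by limma or by the edgeR quasi-likelihood test, against 0.366% of all 3281 sequences tested by limma. By limma 6 had an unadjusted p under 0.05, 5 of them lower and 1 higher at 18M, where 13.0% of all sequences tested had one and 4.63% had one in the lower direction. DESeq2 called 151 of all 3281 sequences. Of the 112 it called 1, a 20-nt read that starts 1 base earlier with a base that the hairpins do not encode at its 5′ end (log2 fold change -0.74, adjusted p = 0.0412).
miR-124-3p, 20 nt, mismatched 5′ base: aTAAGGCacgcggtgaatgc
This read was at 21.9, 25.2 and 25.2 RPM at 2M and at 12.1, 18.1 and 13.4 RPM at 18M. Its limma log2 fold change was -0.70 (SE 0.18, adjusted p = 0.2). Without 18M replicate 2, 33 of 113 sequences had an unadjusted p under 0.05 by limma, 31 of them lower at 18M. No share over all sequences is given for this setting. That library had the highest miR-124-3p level, which these reads share, so the count adds nothing to the level of the strand.

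By their relation to the hairpins, the miR-124-3p reads fell into 3 classes. Templated reads match a hairpin from end to end, tailed reads match it up to a 3′ end of 1 to 5 other bases, and the rest differ at the 5′ end or inside. There were 45 templated sequences with 85.7% of the miR-124-3p reads, 658 tailed sequences with 13.1% and 1828 others with 1.23%. A base added by an enzyme that happens to equal the next base of the hairpin counts as templated. Templated reads were at 108718, 112672 and 111374 RPM at 2M and 79749, 114890 and 77231 RPM at 18M. Tailed reads were at 15785, 13586 and 15950 RPM at 2M and 15040, 17650 and 14234 RPM at 18M. In both classes the ages overlapped, and the 18M mean was 0.817 times the 2M mean for templated and 1.04 times for tailed reads. Among the sequences tested, 13 of 21 templated ones had a negative log2 fold change (median -0.27) and 47 of 67 tailed ones a positive one (median 0.08). Of the others, 18 of 20 had a negative one (median -0.42). Of all sequences tested 47.5% were negative. The member sequences come from 1 strand in the same libraries, so their signs are not independent.

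Within the guide strand, the tailed share was 12.5%, 10.6% and 12.4% in the 2M libraries and 15.7%, 13.1% and 15.4% in the 18M libraries. All old brains lay above all young ones, 18M replicate 2 included, although that library stood closest to the young ones. Young brains averaged 11.8% ± 1.04 (SD, n = 3) and old brains 14.7% ± 1.39 (SD, n = 3), which is 2.90 percentage points more (exact permutation test, two-sided, p = 0.1, the smallest p that 3 against 3 allows, and 0.25 when adjusted over 5 measures of the strand). Counting error was small beside this, with Wilson 95% intervals of at most ± 0.0525 percentage points. A difference in this direction was common. Of 276 miRNAs with a mean of at least 100 RPM and a hairpin in the annotation, 19.2% had a tailed share whose groups did not overlap and was higher at 18M, 192 had a positive difference and the median difference was 0.497 percentage points. miR-124-3p ranked 28 of 276 by its difference. When only tails of 1 base were counted the difference was 1.85 percentage points and the ages overlapped.

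**Figure D3:**
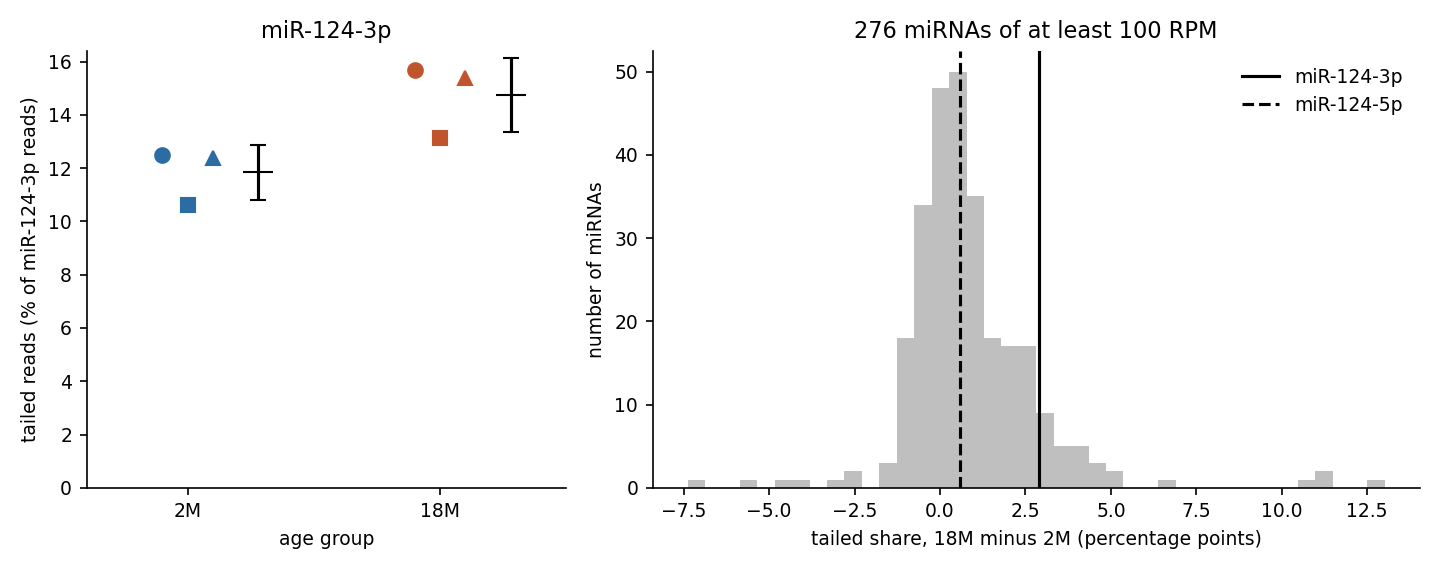
Left, tailed reads as a percent of miR-124-3p reads in each library with the mean ± SD (n = 3); the axis starts at 0 and all 18M points lie above all 2M points. Right, the number of miRNAs (of 276) by the 18M minus 2M difference in tailed share in percentage points, with miR-124-3p at 2.90 (solid line) and miR-124-5p at 0.573 (dashed line).

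Among the tails that could be told from the hairpins, U alone was the main kind. An A added to the 20-nt or 21-nt body equals the next base of the hairpins and counts as templated, so A tails may be undercounted. Added A and added U both count on the 19-nt and 22-nt bodies. There 1-nt U tails stood on 1.09% and 16.0% of the 2M reads, and any tail on 7.23% and 32.3%. Reads with tails of U alone made up 8.34%, 7.48% and 8.51% of miR-124-3p at 2M and 10.4%, 9.19% and 10.2% at 18M, and the ages did not overlap (p = 0.1 by the same exact permutation test, 0.28 when adjusted over 7 tail measures). Other miRNAs were not compared in this measure. Tails of A alone were at 2.14% ± 0.385 (SD, n = 3) and 2.69% ± 0.363 (SD, n = 3), with overlap. Single G and single C tails were rarer, at 0.391% and 0.0811% at 2M. The most abundant tailed read, the 21-nt body with 1 U, averaged 4087 ± 1169 RPM (SD, n = 3) in young and 4101 ± 1190 RPM (SD, n = 3) in old brains, a log2 fold change of 0.01 whose sign changed with the scaling. The read with 2 U was at 860, 1602 and 1194 RPM at 2M and 1298, 1677 and 1168 RPM at 18M, with overlap.

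The counted tailed share differed between the bodies that carried the tail. The bodies were not counted alike, since an added A is a tail on the 19-nt and 22-nt bodies and templated on the 20-nt and 21-nt bodies. A 21-nt body with an added A is itself counted as the 22-nt body. Averaged over the 3 young brains, tails stood on 7.23% of the reads with the 19-nt body, 6.60% with the 20-nt body, 11.4% with the 21-nt body and 32.3% with the 22-nt body. Within each of these bodies the ages overlapped, and the difference between ages was 3.46, 1.98, 2.62 and -2.37 percentage points in the same order (exact permutation tests, p = 0.2, 0.2, 0.3 and 0.7). The separation of the ages seen over all miR-124-3p reads was thus not present within a single body, and for the 22-nt body the difference in means pointed the other way. How far a shift between bodies carries the difference in the tailed share was not tested.

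The mean length of miR-124-3p reads was 20.89, 20.73 and 20.82 nt at 2M and 20.91, 20.95 and 20.96 nt at 18M, longer in all old brains than in all young ones. The difference was 0.128 nt (exact permutation test, p = 0.1, adjusted over 5 measures 0.25), and it was 0.0863 nt without 2M replicate 2 and between 0.116 and 0.166 nt without any other library, with no overlap in each case. The mean length separated in this direction in 4.35% of the 276 miRNAs and in the other direction in 14.1%, and miR-124-3p ranked 15 of 276 by its difference. Its reads were among the shortest, with a mean over all libraries of 20.9 nt, rank 273 of 276, against a median miRNA of 21.8 nt. Reads of 22 nt made up 16.9%, 11.6% and 16.2% at 2M and 18.1%, 18.2% and 17.0% at 18M, with no overlap (p = 0.1 by the exact permutation test, 0.42 when adjusted over 7 lengths). Other miRNAs were not compared in this share. The 6 other lengths from 18 to 24 nt overlapped.

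**Figure D4:**
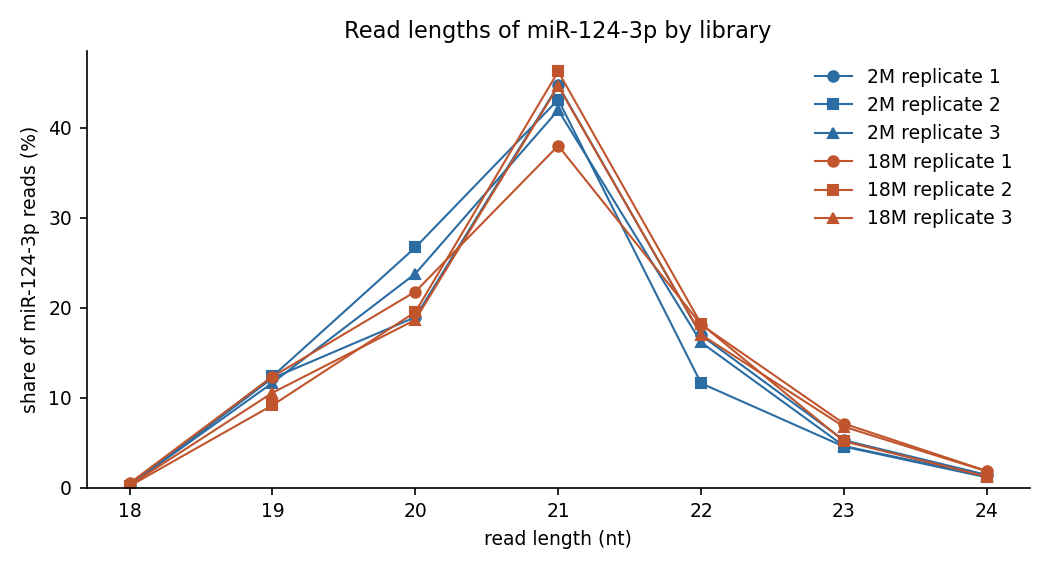
Share of miR-124-3p reads (%) at each read length from 18 to 24 nt, with 1 line per library (2M blue, 18M orange) and an axis from 0. All libraries peak at 21 nt, with 38.0% to 46.3% of the reads, and at 22 nt all 18M libraries lie above all 2M libraries.

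The start of the guide strand set its seed. AAGGCA, the seed of the main start, was carried by 84.9% of the miR-124-3p reads, and its viability in the study's screen was 57.3%. UAAGGC, the seed of reads that start 1 base earlier, was carried by 13.1% and has a viability of 31.2%. AGGCAC, the seed of reads that start 1 base later, was carried by 1.17% and has a viability of 30.4%. The share of the main seed was 84.8%, 85.4% and 84.8% at 2M and 85.1%, 84.8% and 84.7% at 18M, and the share of UAAGGC was 13.2%, 12.9% and 13.3% at 2M and 13.1%, 13.2% and 13.3% at 18M. Both shares overlapped between ages, with differences in the means of -0.113 and 0.0791 percentage points. The main seed share of miR-124-3p ranked 224 of 276, against a median of 96.7%. Averaged over its reads, the seed viability of miR-124-3p was 53.6% at both ages.

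Summed over all reads of a seed, AAGGCA averaged 110360 ± 1294 RPM (SD, n = 3) in young and 92925 ± 19927 RPM (SD, n = 3) in old brains (log2 fold change -0.27, SE 0.15, limma, adjusted p = 0.482 over 1105 seeds). Of the seeds tested 0.905% were called. miR-124-3p supplied 98.3% of the reads of this seed, and without 18M replicate 2 the seed was called like its miRNA (log2 fold change -0.44, limma, adjusted p = 0.0483). Without that library 38 seeds were called, so the 0.905%, which is from all 6 libraries, cannot be set beside this call. UAAGGC was at 17163 ± 354 RPM (SD, n = 3) and 14556 ± 3062 RPM (SD, n = 3), a log2 fold change of -0.26 (SE 0.16, limma, adjusted p = 0.524), and miR-124-3p supplied 97.5% of it. Among seeds with a viability under 40% it was outnumbered only by AGCAGC, mainly from miR-16-5p, and by AGCUGC, mainly from miR-22-3p. Mainly through its earlier and later starts, miR-124-3p was the source of 13.8%, 13.2% and 14.2% of all reads with a viability under 40% at 2M and of 10.5%, 15.9% and 9.99% at 18M. As in the level of the strand, 18M replicate 2 was above all young brains and the other two were below.

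The 5′ start and the 3′ end were linked. Templated reads that end at base 19, 20, 21 or 22, counted from the main start, were divided by end for each start. Of the reads with the main start, 14.7% ± 1.67 (SD, n = 6 libraries) ended at base 19, 24.2% ± 4.11 at base 20, 51.3% ± 4.31 at base 21 and 9.83% ± 2.70 at base 22. Of the reads that start 1 base earlier, 21.9% ± 1.67 ended at base 19, 31.7% ± 3.14 at base 20, 42.2% ± 3.28 at base 21 and 4.21% ± 1.10 at base 22. The earlier start thus went with earlier 3′ ends. The difference was 7.21 ± 1.34 and 7.53 ± 1.40 percentage points at bases 19 and 20, and -9.11 ± 1.34 and -5.63 ± 1.63 percentage points at bases 21 and 22 (SD over libraries). Each had the same sign in 6 of 6 libraries (exact sign-flip permutation test within libraries, two-sided, p = 0.0312, the smallest 6 libraries allow, and 0.0312 after adjustment over the 4 ends, which sum to 100% and so are not independent). Between ages only the main-start share that ended at base 22 did not overlap, at 8.11% ± 2.58 (SD, n = 3) against 11.6% ± 1.63 (SD, n = 3). It was 10.05%, 5.18% and 9.11% at 2M and 13.33%, 11.22% and 10.12% at 18M. The closest values thus nearly met, and 2M replicate 2 was far the lowest. The exact permutation test between ages gave p = 0.1, the smallest that 3 against 3 allows, not adjusted over starts and ends. Other miRNAs were not compared in this measure.

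**Figure D5:**
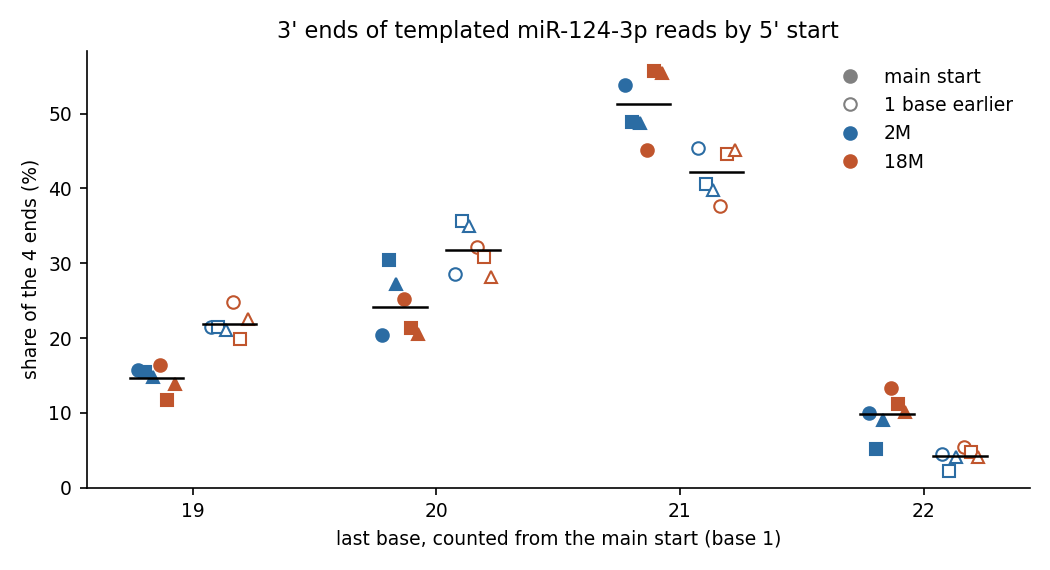
Share (%) of templated miR-124-3p reads that end at base 19, 20, 21 or 22, counted from the main start, for reads with the main start (filled) and reads that start 1 base earlier (open), with 1 point per library and a line at the mean of 6 libraries. In every library the reads that start earlier have the larger share at bases 19 and 20 and the smaller share at bases 21 and 22.

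The passenger strand was more uniform at its 5′ end. Its seed GUGUUC, with a viability of 54.8%, was carried by 97.5% of the miR-124-5p reads, and miR-124-5p supplied 98.8% of the reads of that seed. The 21-nt read made up 51.2% of the strand and the 22-nt read 25.3%. The 21-nt read was at 202, 233 and 160 RPM at 2M and 184, 155 and 195 RPM at 18M, with overlap (log2 fold change -0.14, SE 0.19, limma, adjusted p = 0.76). Templated reads were 95.8% of the strand and tailed reads 3.77%, a lower counted share than on the guide strand. The hairpins encode U after the 21-nt and 22-nt reads of miR-124-5p, so a U added there counts as templated. Tails were therefore not counted alike on the strands, and how often each is tailed cannot be compared. Its tailed share was 3.28%, 3.26% and 4.01% at 2M and 3.92%, 4.35% and 4.01% at 18M, with overlap, and it ranked 236 of 276 miRNAs by that share. Tails of A alone, the most common kind among those counted, were at 2.14% ± 0.293 (SD, n = 3) and 2.65% ± 0.166 (SD, n = 3), and the ages did not overlap (p = 0.1 by the exact permutation test, 0.233 when adjusted over 7 tail measures). The closest values were 2.45% in 2M replicate 3 and 2.55% in 18M replicate 3. Other miRNAs were not compared in this measure. The tailed reads behind these shares numbered 265 to 333 a library, which gives the tailed share Wilson 95% intervals of up to ± 0.473 percentage points beside a difference between ages of 0.573. The mean length was 21.34 ± 0.067 nt and 21.33 ± 0.026 nt (SD, n = 3).

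The miRNAs whose log2 levels went most closely with miR-124-3p over the 6 libraries, among 274 others with a mean of at least 100 RPM, were miR-486a-5p and miR-486b-5p (Pearson r = 0.987 for both, which had the same value in each library), miR-9-3p (0.913), miR-668-3p (0.91) and miR-423-5p (0.905). These are correlations over 6 libraries that share their scaling, given as a description. miR-9-3p, from a hairpin that is abundant in brain, was at 18940, 19739 and 19730 RPM at 2M and 17334, 18879 and 15591 RPM at 18M, lower in all old brains than in all young ones but not called (limma, adjusted p = 0.421). Groups that did not overlap in this direction were found for 19.2% of the miRNA labels tested. miR-124-5p went most closely with miR-126a-3p (0.954), miR-130a-3p (0.929), miR-335-5p (0.915), miR-1839-5p (0.913) and miR-370-3p (0.859). The strands themselves did not go together, with r = -0.12 over the same libraries.

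Lists of miRNAs that are enriched in cell types of the brain were read beside the guide strand. None of the members tested was called in any list (limma, adjusted p under 0.05). All 15 neuron-enriched miRNAs were present, and 8 had a negative and 7 a positive log2 fold change, with a median of -0.01 against -0.07 for all labels tested, and their summed level was 129076 to 145356 RPM at 2M and 140154 to 157670 RPM at 18M. The 4 most abundant were miR-128-3p, miR-9-5p, miR-132-3p and miR-138-5p. In 18M replicates 1 and 3, where miR-124-3p was lowest, this sum was 140154 and 157670 RPM, but its members differed. In both of these libraries 3 of the 15 lay below every young brain and 4 lay above every one. The 3 below were miR-132-3p (18398 and 19622 RPM against 21455 to 23149 RPM at 2M), miR-212-3p (1070 and 1131 against 1196 to 1446 RPM) and miR-149-5p (448 and 590 against 649 to 751 RPM). The 4 above were miR-138-5p, miR-129-2-3p, miR-137-3p and miR-135a-5p. In 18M replicate 2 these 4 were at 12863, 2118, 1873 and 645 RPM in the same order. None of them was above every young brain there, so the ages overlapped for all 4. The 3 below were lower in 18M replicate 2 as well, and groups without overlap in this direction made up 19.2% of all labels tested. No such share was worked out for labels above every young brain. These libraries were picked for their low miR-124-3p, so the counts are a description. The 4 oligodendrocyte miRNAs (miR-338-3p, miR-219a-5p, miR-219a-2-3p and miR-338-5p) had a median of -0.14 and overlapping sums. The microglia and immune list (led by miR-150-5p, miR-142a-3p, miR-146a-5p and miR-142a-5p, 5 of 6 tested) had a median of -0.22, and its sum was 3776 to 4111 RPM at 2M and 2834 to 3402 RPM at 18M without overlap. That separation came from miR-150-5p, which was at 3094, 3124 and 2852 RPM at 2M and 2384, 2068 and 2431 RPM at 18M. The sums of the 4 others tested, 830 to 983 RPM at 2M and 760 to 966 RPM at 18M, overlapped, and miR-146a-5p and miR-223-3p had positive log2 fold changes of 0.19 and 0.03. The 4 vessel miRNAs (miR-126a-3p, miR-143-3p, miR-126a-5p and miR-145a-5p) had a median of -0.29 and overlapping sums of 11390 to 17001 and 10104 to 13607 RPM, and without miR-126a-3p the sums were 7924 to 9085 and 6141 to 7458 RPM and did not overlap. The 5 epithelial or olfactory miRNAs (led by miR-200a-3p, miR-429-3p, miR-200b-3p and miR-141-3p) had a median of -0.11 and sums of 37770 to 44974 RPM at 2M and 28949 to 48013 RPM at 18M, highest in 18M replicate 2 and lowest in 18M replicate 3. The part of these cell types in the levels of miR-124 was not tested.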

How the data were processed

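Small RNA libraries of Argonaute pulldowns were analysed from 6 mouse brains, grouped by the sample titles. The labels do not say whether replicates were prepared together, and p-values measure the spread between these 3 and 3 libraries. According to the methods of the study, the authors trimmed reads (the submitters' processing notes name Trim Galore), collapsed identical reads, removed rare ones, matched them to small RNA lists with the SPOROS pipeline and scaled each library. Aligner settings and versions are not given in the sources used here. The deposited table holds RPM per read sequence, and the seed viability is a deposited score, the authors' mean over mouse cell lines. A single value step per library made 100% of its values whole multiples within 0.0129 of a step, which gave 19272046 to 25080484 reads per library, with overlap between ages. No pair of libraries was a duplicate. Intervals and the floor of 3 reads cover counting error only, since reads carried no molecular identifiers.

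The members, lists and tests were chosen with earlier results of these data known. Reads were summed per miRNA label and per seed. The main test was limma 3.58.1 (trend) in R 4.3.3 on log2(RPM + 1), a scale that understates changes of low features, for all features whose mean reached 10 RPM. P-values were adjusted over all of them (Benjamini-Hochberg), with a threshold of 0.05. In simulated read sequences with 200 changed 4-fold, 163 entered the fit and 163 were called with the right sign. Of 3070 that had not been changed, 6 were called. The simulated reads were drawn independently for each sequence, and no change smaller than 4-fold was tried. The recovery therefore does not measure power for the smaller differences reported here. The strand ratio was tested likewise over hairpins, without the trend. Single values per library were compared with exact two-sided permutation tests. Reads were compared with the Mir124a hairpins of GENCODE M21 (GRCm38) as templated, tailed (a matched body of at least 13 bases, then 1 to 5 others) or other. Mature sequences of miR-124 were not used here, and the printed reads are those of the deposited table. Named sequences were those of miR-124-3p of at least 1000 RPM, the top 5 of miR-124-5p, the most abundant of other seeds, and members called. Named miRNAs were the 5 most correlated with each strand at a mean of at least 100 RPM and the top 4 of each list.

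Alternatives were pseudocounts of 0.1 and 5, other filters, a block for the replicate number, scaling by median of ratios, limma without trend, edgeR 4.0.16 and DESeq2 1.42.0 on the recovered reads, reads with a single label, and the omission of each library in turn. After the data were seen, 2 kinds were added, hairpin reads without a label and tailed shares within a body, as were list sums without their most abundant miRNA. Links between starts and ends, and the sequence DESeq2 called, were also chosen after the data were seen. Python 3.11.15 was used with pandas 2.3.3, scipy 1.17.1, numpy 2.4.6 and, for plots, matplotlib 3.10.9.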

Additional observations from a re-analysis of the deposited data

How the results depend on the processing

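The level of miR-124-3p kept its sign and side of the threshold in 16 of 17 alternatives, and that of seed AAGGCA in 14 of 15. The exception in each was leaving out 18M replicate 2, and over the libraries left out the log2 fold change ranged from -0.44 to -0.17 for both. miR-124-5p and the strand ratio kept theirs in all alternatives run, with ranges on leaving out a library of -0.24 to -0.02 and -0.39 to -0.02. Median-of-ratios scaling moved the median miRNA by 0.095 on the log2 scale and miR-124-3p to -0.17.

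Counts over all features depended on the setting. The 23 miRNAs called became 46 with DESeq2, 14 with edgeR, 15 without the trend, 14 with median-of-ratios scaling, 2 at a mean of at least 100 RPM, 3 with no filter, 15 with single labels and 0 to 15 on leaving out a library. The 12 sequences called became 151 with DESeq2, 20 at a mean of at least 1 RPM, 0 at 100 RPM and 0 on leaving out any library. The 10 seeds called became 50 with DESeq2, 4 without the trend, 5 at 1 RPM, 4 at 100 RPM, 18 with median-of-ratios scaling and 0 to 38 on leaving out a library, where the 38 came without 18M replicate 2. Among miR-124 sequences DESeq2 called 1. The settings differ in the features tested, the scaling and the test, and the causes of the changed counts were not tested.

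Same-numbered libraries did not deviate together (correlations of -0.17, -0.22 and -0.10), so the numbers were not taken as pairs. With the replicate number as a block, 1 miRNA, 0 sequences and 0 seeds were called, and with a block miR-124-3p stayed uncalled (limma, adjusted p = 0.429). Its tailed share and mean length then had an exact permutation p of 0.25, the smallest 3 pairs allow.

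Signs changed for differences that had not passed their tests. The main seed share of miR-124-3p, -0.113 percentage points, was 0.0853 without 2M replicate 2 (range -0.236 to 0.0853). The tailed share in the 22-nt body was -2.37. The mean length of miR-124-5p, -0.0093 nt, was 0.0288 on omission of 2M replicate 1 and 0.00584 on omission of 18M replicate 1 (range -0.0348 to 0.0288). With only sequences of at least 10 RPM, the seed and tailed shares of miR-124-5p had a difference of 0, since its 4 sequences left were templated and of 1 seed. Of single reads, the log2 fold change of the 22-nt read, 0.23, was -0.047 without 2M replicate 2 (range -0.047 to 0.43 over the libraries left out). That of the 21-nt body with 1 U, at 0.011, was -0.0079 with median-of-ratios scaling, -0.0048 with edgeR, -0.0074 with DESeq2, -0.24 without 2M replicate 2 and -0.22 without 18M replicate 2 (range -0.24 to 0.19). The 22-nt body with 1 U, at 0.15, was -0.048 without 2M replicate 3 (range -0.048 to 0.35), and the read with 2 U, at 0.21, was -0.019 once 2M replicate 1 was left out (range -0.019 to 0.43). The 22-nt body with 1 A, at -0.015, was 0.079, 0.034, 0.093 and 0.053 on omission of 2M replicates 1 and 3 and 18M replicates 2 and 3 (range -0.19 to 0.093).

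Exact permutation tests of 3 against 3 libraries cannot go below p = 0.1, and 265 to 333 tailed reads a library limit what can be seen in miR-124-5p. The label takes whole reads only. A further 1802 sequences that the second annotation column places on a mir-124 hairpin carry no miRNA label, and they amount to 2.13% to 2.31% of the labelled reads.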

Other observations

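Reads that differ from the 21-nt main read of miR-124-3p by 1 base were present for all 51 possible changes at positions 2 to 18, counted from 1 at the 5′ end of the read. As a share of the main read most of them hardly moved, and the median change had a highest share 1.29 times its lowest over the 6 libraries. C10T stood out among the abundant ones after the values were seen, with a mean of 93.8 RPM and no miRNA label in the table. Its share of the main read was 0.195%, 0.193% and 0.175% at 2M and 0.389%, 0.151% and 0.260% at 18M. The same change at the same base was highest in 18M replicate 1 and second highest in 18M replicate 3 on the 19-nt, 20-nt and 22-nt bodies and on the 22-nt body that starts 1 base earlier. On the 20-nt body it was 0.191%, 0.214% and 0.187% at 2M and 0.251%, 0.169% and 0.231% at 18M. In RPM the C10T form of the 21-nt read was at 96.8, 90.8 and 81.0 at 2M and 118, 82.5 and 93.7 at 18M, while the main read was lowest in 18M replicates 1 and 3. The ages overlapped in the share, and its origin was not tested.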
